A study of Mus musculus with 474 samples.

Results

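Divisions of mouse haematopoietic stem cells (HSCs) whose daughters carried much transcript of Ctsd, the gene of the lysosomal protease cathepsin D, were compared with divisions whose daughters carried little of it. The members were chosen from the data. Sisters were joined by movie, experiment, position and colony, divisions with 1 lysosome-high and 1 lysosome-low daughter were kept, and divisions were ranked within each culture experiment by the mean log2(CPM + 1) of Ctsd in both sisters, where CPM is a gene's counts scaled to the total on genes in the usual way. The upper 64 divisions are called Ctsd-high, the lower 64 Ctsd-low, and the 75 between them Ctsd-middle, with 2 daughter cells each. Together they are all divisions joined as 1 lysosome-high and 1 lysosome-low sequenced daughter. A further 68 cells of the series stood in no such pair and are called unpaired cells. In every group the cells were daughters of wild type HSCs at their first division in vitro. The HSCs came from male C57BL/6JRj mice of 12 to 19 weeks, from bone marrow. Divisions were followed by time-lapse imaging, and daughters were picked one by one and sequenced with Smart-seq2, a protocol for whole transcripts of cells in wells that adds no molecular identifiers. A lysosome-high daughter had received more lysosomes than its sister and a lysosome-low daughter fewer. No agent or allele separated the groups, and each of the 9 experiments contributed the same number of Ctsd-high and Ctsd-low divisions, from 3 to 12 each.

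Cathepsin D is an aspartic protease that is made as a precursor, carried to lysosomes by receptors for mannose 6-phosphate and other routes, and activated by cleavage in their acid interior, where it degrades proteins. Genes of lysosomal enzymes, of the proton pump that acidifies the lysosome and of autophagy share a promoter element, the CLEAR element, that is bound by the transcription factor TFEB and its relatives. In HSCs lysosomes have been tied to quiescence, and the organelles can be passed on unequally when a stem cell divides.

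Ctsd (ENSMUSG00000007891, GRCm38 chromosome 7, 142375911 to 142388038, minus strand) had a count in 100% of the cells in both groups. Since Ctsd defined the groups, its values are a description. Per experiment, Ctsd had a lowest, median and highest value of 316.9, 555 and 749 CPM in Ctsd-high divisions and of 117.2, 199.05 and 273.8 CPM in Ctsd-low divisions, and the groups did not overlap. The means were 547 ± 115.2 CPM in Ctsd-high and 195.9 ± 45.5 CPM in Ctsd-low divisions (SD, n = 9 experiments). Single Ctsd-high cells ran from 155.5 to 1186 CPM with a median of 539.9, and single Ctsd-low cells from 1.302 to 412.4 CPM with a median of 192.5. The edges of the groups were close. The lowest Ctsd-high division was 1.004 to 1.12 times the highest Ctsd-middle division of its experiment, and the lowest Ctsd-middle division was 1.01 to 1.17 times the highest Ctsd-low division. The sisters' Ctsd levels lay within 2-fold of each other in 61 of 64 Ctsd-high divisions, with a median absolute log2 difference of 0.32, and in 52 of 64 Ctsd-low divisions, with one of 0.50. A readthrough gene, Gm49369 (chromosome 7, 142371096 to 142382667, minus strand), overlaps Ctsd and had a count in 0.74% of cells.

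**Figure D1:**
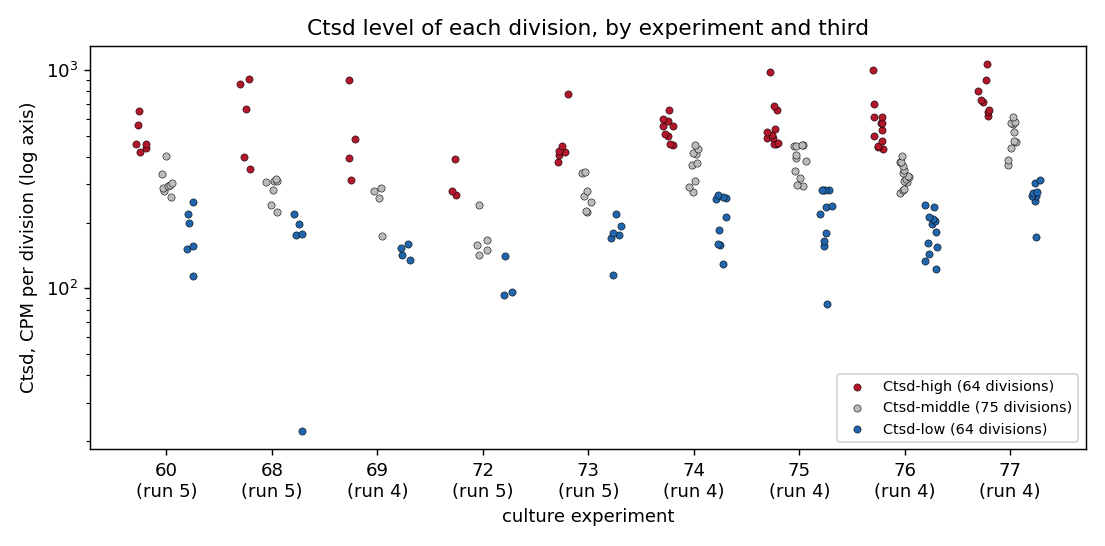
Ctsd level of each division (CPM, back-transformed mean log2 of both sisters, log axis) by culture experiment, with Ctsd-high divisions at the left, Ctsd-middle in the centre and Ctsd-low at the right of each experiment. Groups are cut within experiments, so a Ctsd-low division of experiment 77 can lie above a Ctsd-high division of experiment 72, and 1 Ctsd-low division of experiment 68 lies far below all others.

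One library stood apart. A lysosome-low daughter of a Ctsd-low division in experiment 68 held 1 read of Ctsd among 767803 counts on genes, with 6402 detected genes, a mitochondrial share of 0.0703% and no read of Kit. Its sister had 899 reads of Kit, 11453 detected genes and a mitochondrial share of 1.53%. The medians over all cells of the series were 9867.5 detected genes and a mitochondrial share of 1.64%. Results without that division are given where they differ.

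For a few chosen genes the promoter is given as the stretch from 250 bases before to 50 bases after the annotated start (RefSeq, GRCm38.p6, written 5′ to 3′ on the gene's strand). Only promoters that hold the marked letters are shown, so they do not stand for all genes that rose or fell. The first sequences are Ctsd and a pair of lysosomal genes that were higher in Ctsd-high divisions, and the capitals mark TCACGTGA, a palindrome that holds the E-box core CACGTG of the CLEAR element. The last ones are a pair of mitotic genes that were lower, and the capitals mark TTTGAA, the letters of the cell cycle homology region (CHR), searched on both strands.
Ctsd (chr7:142387778-142388077, minus strand): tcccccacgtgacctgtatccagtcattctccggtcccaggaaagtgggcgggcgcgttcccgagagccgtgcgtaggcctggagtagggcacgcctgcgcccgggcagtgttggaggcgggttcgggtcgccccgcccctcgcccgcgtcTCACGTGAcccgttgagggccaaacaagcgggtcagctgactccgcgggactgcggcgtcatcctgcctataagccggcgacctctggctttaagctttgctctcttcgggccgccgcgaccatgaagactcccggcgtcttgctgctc
Ctsa (chr2:164833523-164833822, plus strand): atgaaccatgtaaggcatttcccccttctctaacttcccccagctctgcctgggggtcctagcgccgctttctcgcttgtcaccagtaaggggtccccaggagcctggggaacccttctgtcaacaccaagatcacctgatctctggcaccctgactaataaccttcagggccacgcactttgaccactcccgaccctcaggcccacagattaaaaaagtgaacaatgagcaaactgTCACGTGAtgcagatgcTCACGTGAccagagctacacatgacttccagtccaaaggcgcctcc
Atp6v0d1 (chr8:105566015-105566314, minus strand): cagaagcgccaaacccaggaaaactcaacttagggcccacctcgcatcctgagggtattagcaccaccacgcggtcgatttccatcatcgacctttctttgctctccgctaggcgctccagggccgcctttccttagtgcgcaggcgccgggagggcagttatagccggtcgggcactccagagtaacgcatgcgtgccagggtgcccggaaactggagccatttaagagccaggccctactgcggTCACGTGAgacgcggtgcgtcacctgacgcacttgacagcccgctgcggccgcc
Plk1 (chr7:122159185-122159484, plus strand): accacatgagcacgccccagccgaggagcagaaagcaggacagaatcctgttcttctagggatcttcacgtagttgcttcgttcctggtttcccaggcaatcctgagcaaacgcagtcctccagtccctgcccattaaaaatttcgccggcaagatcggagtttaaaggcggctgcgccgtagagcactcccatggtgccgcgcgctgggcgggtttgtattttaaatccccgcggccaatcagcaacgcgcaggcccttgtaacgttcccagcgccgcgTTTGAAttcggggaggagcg
Cenpa (chr5:30666636-30666935, plus strand): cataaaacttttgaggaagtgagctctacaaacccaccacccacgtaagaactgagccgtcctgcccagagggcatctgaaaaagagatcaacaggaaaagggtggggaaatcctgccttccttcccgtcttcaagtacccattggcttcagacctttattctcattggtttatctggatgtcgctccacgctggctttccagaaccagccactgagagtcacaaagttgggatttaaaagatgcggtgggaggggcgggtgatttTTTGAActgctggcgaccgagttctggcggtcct

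TCACGTGA was found in the promoter of Ctsd, starting 99 bases before the start site, and in 4 of 18 lysosome, delivery and autophagy genes that rose in Ctsd-high divisions and have a promoter in the table. It was found in 15.9% of all tested genes of those lists and in 2.28% of all 9161 tested genes with a promoter in the table. For all 32851 promoter windows of this length the share was 0.974%. Among all genes that rose the share was 2.86%, and among all that fell 0.415%. TTTGAA was found in 23 of 33 (69.7%) mitotic genes that fell and in 26 of 38 (68.4%) of all tested genes of the mitotic list. Within the list the share was thus close for the genes that fell and for all tested genes. Among all genes that fell, in the list or not, TTTGAA was found in 36.1%, so the letters did not go with the list alone. TTTGAA was found in 14.3% of all tested genes, in 20.2% of all 27025 genes with a promoter and in 17.9% of all windows. A match of letters is a description and does not show binding.

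Cells of both groups carried HSC transcripts, and their depth differed by less than its spread. The HSC genes Mecom, Hlf, Ly6a and Kit had a count in at least 96.9% of the cells of each group. Total counts on genes had a median of 845432 in Ctsd-high cells and 842134 in Ctsd-low cells, and the log2 total differed by -0.05 ± 0.28 (high minus low, SD over 9 experiments, exact sign-flip permutation test, adjusted p = 0.73). Ctsd-high divisions had 9505 ± 339.6 detected genes per cell and Ctsd-low divisions 9909 ± 567.7, lower in Ctsd-high divisions in 8 of 9 experiments, which did not pass the same exact test (adjusted p = 0.10). The mitochondrial share was 1.85% ± 0.487 and 1.77% ± 0.227 in Ctsd-high and Ctsd-low divisions (exact test, adjusted p = 0.81). The share of spike-in reads (ERCC) was 0.414% ± 0.453 in Ctsd-high and 0.279% ± 0.325 in Ctsd-low divisions, higher in 8 of 9 experiments (exact test, adjusted p = 0.19). Reads here are not independent molecules, and no label says that the 9 experiments used separate animals, so p-values measure the spread between cultures.

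Ctsd-high and Ctsd-low divisions differed in many other genes. Of 11984 genes tested on counts summed per experiment and group, 522 (4.36%) had an adjusted p under 0.05 (edgeR quasi-likelihood test, experiment as block, Benjamini-Hochberg adjustment). In Ctsd-high divisions 1.88% of the tested genes rose and 2.48% fell, and the median log2 difference of all genes was 0.01. The values of all 9 experiments were free of overlap between the groups for 47 genes (0.392%), 5 higher (0.0417%) and 42 lower (0.35%) in Ctsd-high divisions. Leaving out 1 experiment changed the share of called genes. It was 1.38% without experiment 73, 1.53% without 69, 1.68% without 68, 1.77% without 76, 2.21% without 74 and 2.77% without 60.

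Lysosomal genes were higher in Ctsd-high divisions. Over 8 lists that hold lysosomal hydrolases, membrane proteins, the proton pump, enzyme delivery and autophagy, Ctsd left out, 21 tested genes rose (13.5%) and 0 fell, against 1.88% of all tested genes that rose. The log2 difference was above 0 for 86.5% of the lists' tested genes and for 50.6% of all genes, with a median of 0.26 and 0.01. Between 8 and 24 of these genes rose when 1 experiment was left out, with 8 without experiment 73 and 8 without experiment 76, 10 without 69, and 11 without 68 and without 74. It was 20 without the division that held the library with 1 Ctsd read.

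Among the proteases, 5 of 15 rose, 0 fell and the median log2 difference was 0.60. Ctsl encodes the cysteine protease cathepsin L. Ctsl had a lowest, median and highest value of 75.9, 111.7 and 173.3 CPM in Ctsd-high divisions and of 26.9, 54.5 and 99.8 CPM in Ctsd-low divisions. It was higher in 9 of 9 experiments, the ranges of the groups overlapped, and the log2 difference was 1.14 ± 0.18 (SE, edgeR, adjusted p = 0.0069). The peptidase genes Tpp1 and Cpq and the cathepsin gene Ctso followed with log2 differences of 0.60 ± 0.14, 0.80 ± 0.21 and 0.63 ± 0.16. Ctsa, whose product also shields other lysosomal enzymes from degradation, was at 204.99 ± 70.3 CPM in Ctsd-high and 146.8 ± 46.6 CPM in Ctsd-low divisions (SD, n = 9) and at 0.43 ± 0.10 on the log2 scale. Other cathepsin genes did not pass the threshold. Ctsb stood at 0.39 ± 0.11 (adjusted p = 0.067), Ctsh at 0.98 ± 0.34, Ctss at 1.90 ± 1.08, Ctsc at 0.25 ± 0.14 and Ctsz at 0.03 ± 0.15. Ctsz lay below 0 without experiment 68, 73, 74 or 77.

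Genes of enzymes that degrade sugars, sulfates and lipids were also among those that rose. Of 19 glycosidase genes 2 rose and 0 fell, with a median of 0.32. Gaa, the gene of acid alpha-glucosidase, which breaks down glycogen in lysosomes, was at 233.1 ± 61 CPM in Ctsd-high and 156.5 ± 45.8 CPM in Ctsd-low divisions (SD, n = 9), higher in 8 of 9 experiments, with a log2 difference of 0.56 ± 0.12. Man2b1, the gene of lysosomal alpha-mannosidase, differed by 0.52 ± 0.11. Hexa, the gene of a beta-hexosaminidase subunit, stood at 0.36 ± 0.11 and did not pass. Of 20 further hydrolase genes 3 rose and 0 fell, with a median of 0.36. Among them were Asah1 of acid ceramidase at 0.59 ± 0.12 and Pld3 at 0.70 ± 0.15. Of 11 genes for saposins, progranulin and lipid transfer 2 rose and 0 fell. Grn encodes progranulin, which lysosomes cut into granulins. Grn had a lowest, median and highest value of 196.8, 345.1 and 431.4 CPM in Ctsd-high divisions and of 142.3, 204.8 and 273.3 CPM in Ctsd-low divisions. The log2 difference of Grn was 0.64 ± 0.11 with an adjusted p of 0.0099 (edgeR), higher in 9 of 9 experiments. Psap, the gene of the saposin precursor, differed by 0.44 ± 0.10, while Npc2, a cholesterol carrier, stood at 0.35 ± 0.10 and did not pass.

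The lysosome membrane, its pump and the delivery routes had few genes past the threshold. Of 25 membrane genes 2 rose and 0 fell, with a median of 0.30. Laptm5, a lysosomal membrane protein of blood cells, was at 1447 ± 216.96 CPM in Ctsd-high and 983 ± 191.5 CPM in Ctsd-low divisions (SD, n = 9), with a log2 difference of 0.54 ± 0.09. The cystine exporter gene Ctns differed by 0.65 ± 0.15. The abundant membrane genes Lamp1 (0.31 ± 0.10), Lamp2 (0.42 ± 0.14) and Cd63 (0.38 ± 0.10) did not pass, with adjusted p of 0.085, 0.11 and 0.059 (edgeR). Of 17 proton pump genes Atp6v0d1 (0.50 ± 0.11) and Atp6v1a (0.34 ± 0.09) rose and 0 fell. Of 27 delivery genes 3 rose, namely Ap3d1 of the AP-3 adaptor at 0.51 ± 0.09, Vps26a of the retromer at 0.40 ± 0.09 and the lysosome trafficking gene Lyst at 0.75 ± 0.17, and 0 fell. The sorting receptor genes M6pr (0.06 ± 0.10), Igf2r (0.68 ± 0.52) and Sort1 (0.04 ± 0.16) did not pass, and Sort1 lay below 0 without experiment 68, 73, 74 or 77. Of 25 autophagy genes Gabarap, of the protein family that coats autophagosomes, rose by 0.40 ± 0.09 and the cargo receptor gene Sqstm1 by 0.61 ± 0.11, and 0 fell. The regulators Tfeb (0.90 ± 0.35), Tfe3 (0.22 ± 0.18) and Mitf (0.54 ± 0.31) did not pass. Of 22 genes of mTORC1 and its lysosomal scaffold, 0 passed by edgeR, with 2 at an unadjusted p under 0.05 and a median of 0.03.

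**Figure D2:**
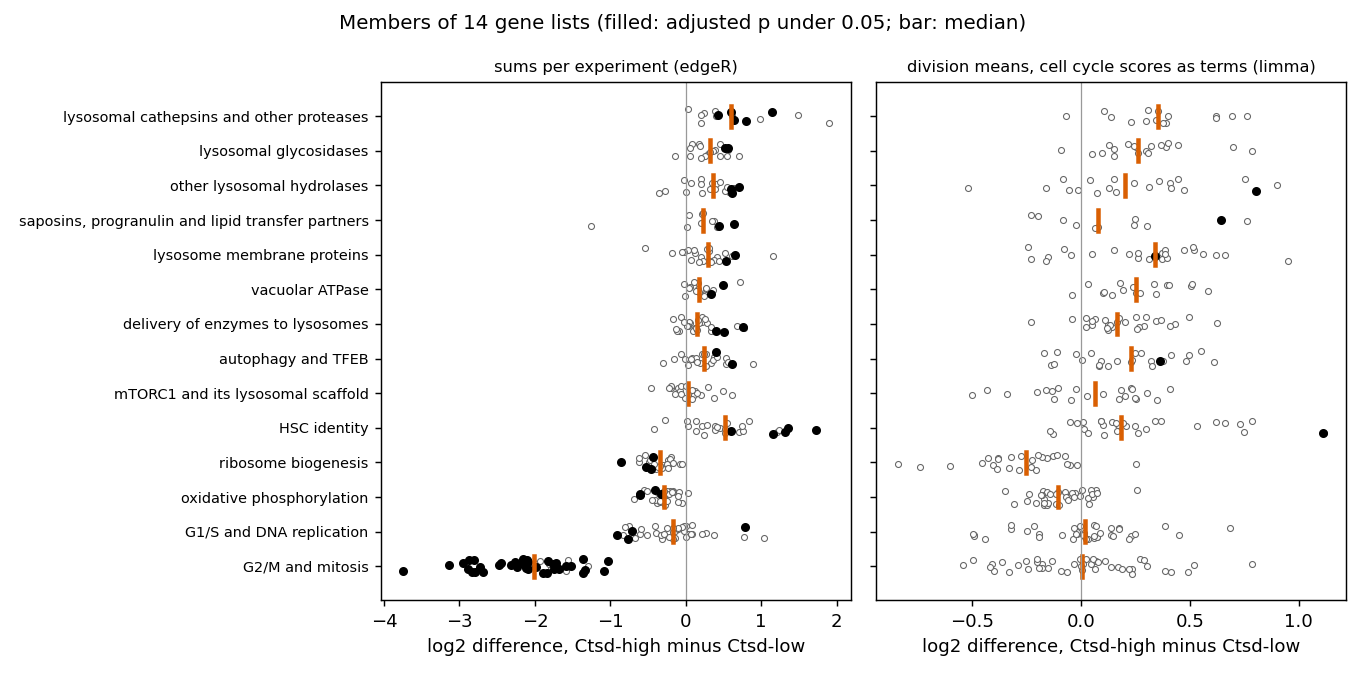
Log2 differences of the tested members of 14 gene lists, Ctsd-high minus Ctsd-low divisions, on summed counts (left) and on division means with the G1/S and G2/M scores as terms (right, where the scale is narrower and divisions count as replicates). Filled points have an adjusted p under 0.05, and the bar is the list's median. G2/M genes have a median of -2.01 at the left and of 0.01 at the right, while lysosomal proteases have medians of 0.60 and 0.36. The G2/M genes themselves make up the G2/M score, so the terms draw them towards 0 by construction.

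Outside the lysosome, Hmox1, Gdf15 and Apoe had the largest rises among the 12 genes that rose with the smallest p. Hmox1 (GRCm38 chromosome 8, 75093621 to 75100589) encodes heme oxygenase 1, which breaks down heme. Hmox1 had a lowest, median and highest value of 52.8, 137.4 and 294.4 CPM in Ctsd-high divisions and of 4.4, 29 and 90.8 CPM in Ctsd-low divisions. It was higher in 9 of 9 experiments though the ranges overlapped, and its log2 difference was 2.14 ± 0.26 (edgeR, adjusted p = 0.0016). Gdf15 encodes a secreted stress cytokine. Gdf15 had a lowest, median and highest value of 27.6, 102.5 and 143.2 CPM in Ctsd-high divisions and of 1.99, 16 and 31.9 CPM in Ctsd-low divisions. Its log2 difference was 2.46 ± 0.30 (adjusted p = 0.0016). Apoe encodes apolipoprotein E, a carrier of lipids. Apoe had a lowest, median and highest value of 188.2, 479.5 and 699 CPM in Ctsd-high divisions and of 10.4, 69.1 and 300.4 CPM in Ctsd-low divisions. Its log2 difference was 2.86 ± 0.46 (adjusted p = 0.0083), higher in 9 of 9 experiments with overlapping ranges.

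The other genes among those 12 were also higher in 9 of 9 experiments. Cadps2, which primes secretory vesicles, and Nek6, a protein kinase gene, had no overlap between groups. That held for 0.0417% of all tested genes in this direction. Cadps2 had a lowest, median and highest value of 84, 105.3 and 125.5 CPM in Ctsd-high divisions and of 43.8, 50.7 and 74.7 CPM in Ctsd-low divisions. Nek6 had a lowest, median and highest value of 300.97, 366.8 and 512 CPM in Ctsd-high divisions and of 126.2, 210.2 and 297.4 CPM in Ctsd-low divisions. Their log2 differences were 0.94 ± 0.12 and 0.91 ± 0.14. The long non-coding RNA Neat1, the scaffold of paraspeckles, differed by 1.37 ± 0.17, the actin-severing gene Gsn by 1.11 ± 0.15, the aldolase gene Aldoc by 1.31 ± 0.19, and the fucosyltransferase gene Fut8 by 0.60 ± 0.09. Grina and Tbc1d8 stood at 0.73 ± 0.11 and 1.18 ± 0.19. Of 11 genes of iron handling 4 rose and 0 fell, against 1.88% and 2.48% of all tested genes. Besides Hmox1 these were the iron exporter gene Slc40a1 at 1.52 ± 0.38, the ferritin heavy chain gene Fth1 at 0.38 ± 0.10 and Aco1, whose product senses iron, at 0.52 ± 0.14. Tcn2, the gene of the vitamin B12 carrier transcobalamin, which lysosomes degrade after uptake, rose by 1.503 ± 0.32. Nfe2l2, the gene of the oxidative stress factor NRF2, rose by 0.47 ± 0.12. Of 23 lipid genes 2 rose, Apoe and the sterol sensor gene Insig1 (0.48 ± 0.11), and 1 fell, the cholesterol esterification gene Soat1 (-0.42 ± 0.11). Anxa5, which binds phosphatidylserine, rose by 0.58 ± 0.13, and the RNA sensor gene Ddx58 was the only 1 of 29 interferon genes that passed, at 0.79 ± 0.15.

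**Figure D3:**
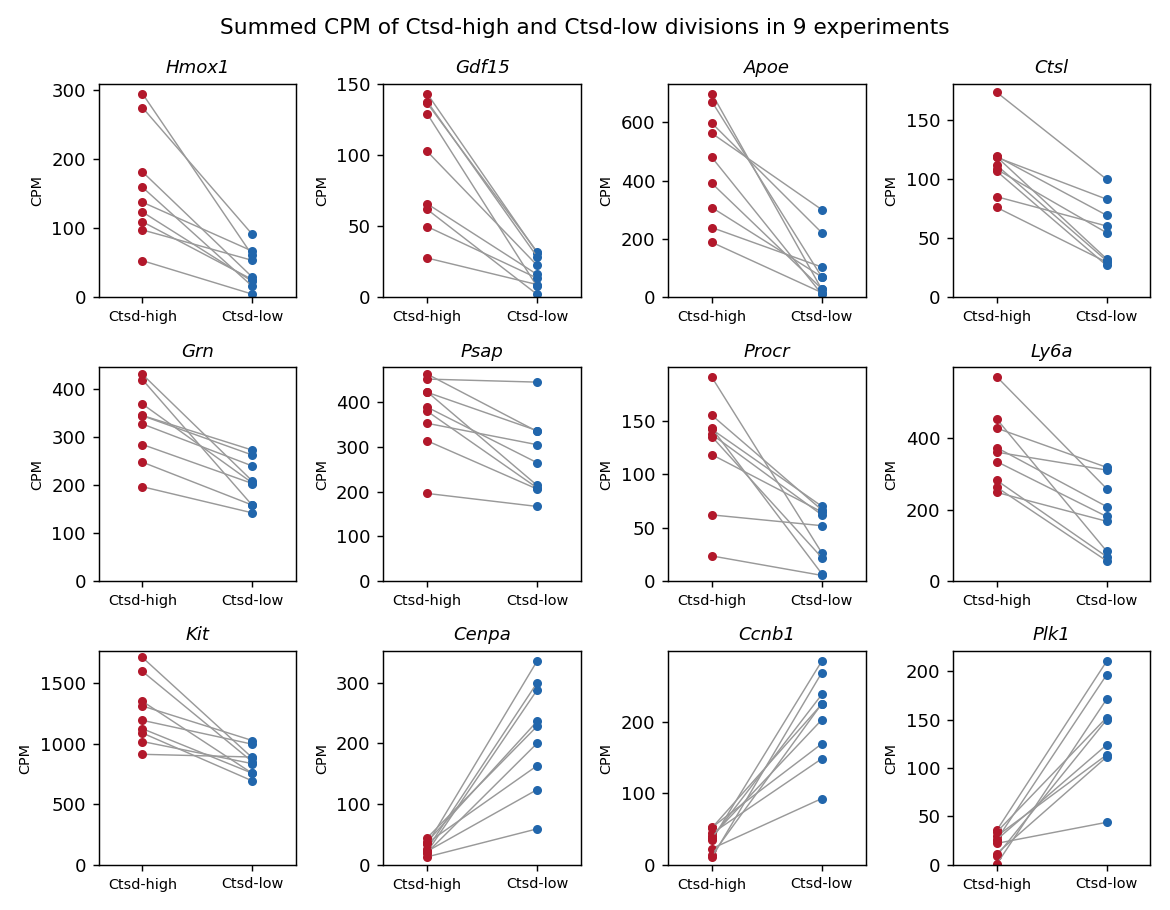
CPM of 12 named genes on counts summed over Ctsd-high divisions (left in each panel) and Ctsd-low divisions (right) in 9 experiments, with a line for each experiment. The first 9 genes, from Hmox1 to Kit, are higher in Ctsd-high divisions in every experiment, and Cenpa, Ccnb1 and Plk1 are lower in every experiment.

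Some genes of HSC identity rose in Ctsd-high divisions. Of 30 tested, 5 rose, 0 fell and the others did not pass, against 1.88% of all tested genes that rose. The median log2 difference was 0.52, with 28 of the 30 above 0, against 50.6% of all genes. Procr encodes the surface receptor EPCR, a marker of HSCs. Procr had a lowest, median and highest value of 23.4, 137.05 and 190.4 CPM in Ctsd-high divisions and of 5.27, 51.7 and 69.9 CPM in Ctsd-low divisions. Its log2 difference was 1.72 ± 0.35 (edgeR, adjusted p = 0.02), higher in 9 of 9 experiments. Ly6a, the gene of the stem cell antigen Sca-1, was at 368.2 ± 104.05 CPM in Ctsd-high and 183.7 ± 100.1 CPM in Ctsd-low divisions (SD, n = 9) and at 1.15 ± 0.23 on the log2 scale. Fgd5 (1.32 ± 0.26), the transcription factor gene Hlf (1.36 ± 0.32) and the adhesion gene Esam (0.60 ± 0.14) also rose. Mecom (0.71 ± 0.22, adjusted p = 0.088), Vwf (1.21 ± 0.38) and Cd34 (0.41 ± 0.16) did not pass. Slamf1, the gene of CD150, stood at 0.03 ± 0.74 and changed sign when experiment 68, 69, 72 or 76 was left out, and Ifi27 stood at 0.01 ± 0.21 with a negative value without experiment 68, 72, 73, 74, 75 or 76. Summed over 8 HSC markers, the level ran from 3069.6 to 6087 CPM in Ctsd-high and from 1731 to 3398 CPM in Ctsd-low divisions, higher in 9 of 9 experiments, and 5 of the 8 rose.

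Genes of multipotent progenitors and activation did not move one way, with 2 of 15 higher and 3 lower, against 1.88% and 2.48% of all tested genes. The receptor gene Kit rose, at 1254 ± 264.1 CPM in Ctsd-high and 853 ± 110.3 CPM in Ctsd-low divisions (SD, n = 9) and 0.51 ± 0.10 on the log2 scale, as did Adgrl4 at 1.02 ± 0.27. The proliferation marker Mki67 (-1.53 ± 0.31), the cyclin-dependent kinase gene Cdk6 (-0.57 ± 0.13) and the nucleolar gene Npm1 (-0.46 ± 0.10) fell. Myc stood at -0.09 ± 0.22 and turned positive without experiment 72. Among 17 genes of quiescence and FOXO, Cdkn2c fell (-1.05 ± 0.27) and 0 rose, with a median of 0.38 and 10 above 0.

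Sums over markers of macrophages and of neutrophils were higher in most experiments, though few single genes passed. Of 18 genes of the macrophage list 7 had enough reads to be tested, and 1 of them rose, against 1.88% of all tested genes. All 7 lay above 0, with a median log2 difference of 1.16 and a range of 0.34 to 3.02, against 0.60 for the lysosomal proteases. The summed level of 8 macrophage markers ran from 164.1 to 408.03 CPM in Ctsd-high and from 127.2 to 325.9 CPM in Ctsd-low divisions and was higher in 9 of 9 experiments. Most of that sum came from Lyz2, a lysozyme gene with a count in 100% and 99.2% of cells, which rose by 0.44 ± 0.10. Cd68 had a median of 42.1 CPM in Ctsd-high and 9.999 CPM in Ctsd-low divisions, with a count in 58.6% and 54.7% of their cells. Adgre1 (12.5% and 4.69%) and Cd14 (16.4% and 14.8%) were also found in more Ctsd-high cells. Csf1r (18.8% and 24.2%) and Mrc1 (3.91% and 5.47%) were found in fewer. C1qa is listed at 0 in all cells, and C1qb had a count in 0.781% of Ctsd-high and 0% of Ctsd-low cells. Since Apoe, Hmox1 and lysosomal genes are also abundant in macrophages, these values stand beside theirs, and their part in the result was not tested. The platelet list had 1 of 13 genes higher, Plek at 0.85 ± 0.18. Sums over megakaryocyte markers were 58.9 to 272.5 CPM in Ctsd-high and 56.04 to 267.2 CPM in Ctsd-low divisions, and those over neutrophil markers, with Mpo and Ctsg listed at 0, were 25.4 to 83.8 CPM in Ctsd-high and 11.1 to 57.3 CPM in Ctsd-low divisions, higher in 8 of 9 experiments. Of the 6 neutrophil markers 2 had enough reads to be tested, and 0 passed. Csf3r had a count in 56.25% of Ctsd-high and 46.9% of Ctsd-low cells, and Elane in 0.781% and 0%. Ms4a3 (2.34% and 14.8%) and Prtn3 (75.8% and 76.6%) were found in fewer Ctsd-high cells. The part of the neutrophil markers in the result was not tested either. Mast cell and basophil markers summed to 139.95 to 226.9 CPM in Ctsd-high and 146.8 to 309.7 CPM in Ctsd-low divisions, higher in 1 of 9 experiments. Nearly all of that sum was Gata2, with medians of 178.2 and 218.5 CPM and a count in 99.2% and 98.4% of cells. Cpa3 had medians of 1.10 and 2.15 CPM, Mcpt8 and Ms4a2 had medians of 0, and Fcer1a is listed at 0. Lymphoid markers summed to at most 1.12 CPM in Ctsd-high and 0.531 CPM in Ctsd-low divisions, with Cd3e and Rag1 listed at 0. A 0 in these tables was not read as absence of a transcript.

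Mitotic genes fell in Ctsd-high divisions. Of 45 tested genes of G2 phase and mitosis, 38 fell and 0 rose, with a median log2 difference of -2.01 and 0 of 45 above 0. Over all tested genes, 2.48% fell, 1.88% rose and 50.6% lay above 0, and 0.35% were lower in Ctsd-high divisions without overlap. Cenpa (GRCm38 chromosome 5) encodes the histone variant that marks centromeres. Cenpa had a lowest, median and highest value of 13.2, 26.2 and 44.5 CPM in Ctsd-high divisions and of 59.3, 228.3 and 335.7 CPM in Ctsd-low divisions. The groups did not overlap, and the log2 difference was -2.88 ± 0.19 (edgeR, adjusted p = 1.1e-05). Ccnb1 encodes cyclin B1, which drives entry into mitosis. Ccnb1 had a lowest, median and highest value of 10.3, 37.8 and 52.4 CPM in Ctsd-high divisions and of 92.7, 224.7 and 284.8 CPM in Ctsd-low divisions. It did not overlap either and differed by -2.69 ± 0.29 (adjusted p = 0.00076). Ube2c, a ubiquitin-conjugating enzyme of the anaphase-promoting complex, was at 15.8 ± 10.1 CPM in Ctsd-high and 193.9 ± 83.4 CPM in Ctsd-low divisions (SD, n = 9), with a log2 difference of -3.75 ± 0.37.

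The other named mitotic genes were lower in 9 of 9 experiments. The phosphatase gene Cdc25b (-3.13 ± 0.24), the kinetochore genes Cenpe (-2.32 ± 0.21) and Cenpf (-2.45 ± 0.26), the anaphase activator gene Cdc20 (-2.73 ± 0.32), the helicase gene Pif1 (-5.76 ± 0.71) and the dynein regulator gene Nde1 (-1.17 ± 0.15) had no overlap between groups. Pif1 had a count in 7.03% of Ctsd-high and 48.4% of Ctsd-low cells, so its difference rests on few cells. Knstrn (-2.09 ± 0.23), Reep4 (-1.503 ± 0.18) and the cyclin gene Ccnb2 (-2.24 ± 0.28) overlapped. Plk1 encodes a kinase that steers mitosis. Plk1 had a lowest, median and highest value of 0.697, 25.8 and 35.6 CPM in Ctsd-high divisions and of 44, 149.8 and 210.2 CPM in Ctsd-low divisions. A count of Plk1 was found in 41.4% of Ctsd-high, 56% of Ctsd-middle and 72.7% of Ctsd-low cells.

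The G2/M score, the mean log2(CPM + 1) of the list, was 2.78 ± 0.88 in Ctsd-high and 5.88 ± 1.38 in Ctsd-low divisions (SD, n = 9), with 4.61 in Ctsd-middle ones. It was lower in Ctsd-high divisions in 9 of 9 experiments (difference -3.10 ± 1.56 SD, exact two-sided sign-flip permutation test, p = 0.0039, the smallest it can give, adjusted p = 0.023 over 6 library measures). The G1/S score was 5.48 ± 0.97 and 6.39 ± 0.40, lower in 8 of 9 experiments (exact test, adjusted p = 0.035). Without experiment 68, 69, 72, 73, 76 or 77 its adjusted p was 0.070. Over all divisions centred on their experiment, Ctsd and the G2/M score had a Pearson r of -0.46 and a Spearman rho of -0.46. This is a description, since both come from the same libraries and share their depth.

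**Figure D4:**
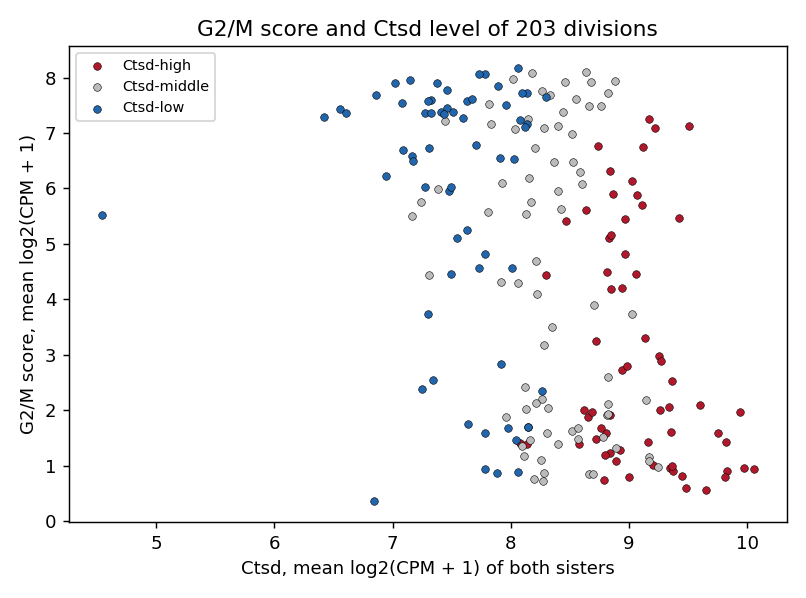
G2/M score (mean log2(CPM + 1) of the list, vertical axis) against Ctsd (mean log2(CPM + 1) of both sisters, horizontal axis) for all divisions, coloured by group. Scores reach 7.25 in Ctsd-high and 8.18 in Ctsd-low divisions, with Ctsd-high divisions denser at the low end and Ctsd-low divisions denser at the high end of the vertical axis, and groups overlap on the horizontal axis because they were cut within experiments.

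Genes of growth were lower to a smaller degree. For comparison, 2.48% of all tested genes fell, 1.88% rose and 50.6% lay above 0, with a median of 0.01. Of 26 ribosome biogenesis genes 4 fell and 0 rose, with a median of -0.35 and 0 above 0. These were Nhp2 (-0.85 ± 0.21), Ncl (-0.52 ± 0.13), Npm1 and Tcof1 (-0.44 ± 0.11), all of which act in the nucleolus. Of 36 genes of oxidative phosphorylation 4 fell and 0 rose, with a median of -0.29. These were Cyc1 (-0.60 ± 0.12), Cox5b (-0.41 ± 0.09) and the ATP synthase genes Atp5g1 (-0.61 ± 0.14) and Atp5b (-0.33 ± 0.08). Of 10 chaperone genes Hsp90aa1 (-0.53 ± 0.13) and Hspe1 (-0.55 ± 0.14) fell and 0 rose. Of 40 genes of G1/S and replication, Mcm10 (-0.92 ± 0.20), Cdc45 (-0.77 ± 0.20) and Brip1 (-0.72 ± 0.18) fell and the origin licensing gene Cdc6 (0.78 ± 0.19) rose. Glycolysis had 1 of 19 genes higher, Aldoc, and a median of -0.05. Medians below 0 of this size were seen with DESeq2's size factors (RLE) too, at -0.34 for ribosome biogenesis and -0.28 for oxidative phosphorylation.

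Because the G2/M score moved with the groups, the comparison was repeated with the G1/S and G2/M scores as terms. On sums per experiment, with the mean scores of their divisions as terms, 0 of 11984 genes passed (edgeR), with 536 at an unadjusted p under 0.05. The median over the G2/M list was then -0.15 and that of the lysosome, delivery and autophagy genes 0.19, with 68.6% above 0, against 0.02 and 51.8% over all genes. Apoe stood at 2.11 ± 0.72, Hmox1 at 1.38 ± 0.51, Grn at 0.69 ± 0.27 and Cenpa at -1.84 ± 0.31 on the log2 scale (SE), and the genes Tpp1, Man2b1 and Psap lay below 0. A further fit used division means, with both scores and their squares as terms. That fit took each division as a replicate, although divisions of 1 culture are not independent samples, so its p-values are too small as a test over cultures. In that fit 28 of 11698 genes passed (0.239%, limma with a trend), 26 higher and 2 lower in Ctsd-high divisions, against 1574 (13.5%) without the scores. The 2 lower genes are 0.0171% of those tested. Of the genes that rose on summed counts 15 were called in the same direction here, and of those that fell 1 was. The G2/M list, which is part of the score, then had a median of 0.01, 24 of 45 members above 0 and 0 calls. Cenpf (0.06) and Plk1 (0.52) lay on the other side of 0. Apoe passed at 2.56, Gdf15 at 2.03, Hmox1 at 1.59, Tcn2 at 1.67, Aldoc at 1.46, Gsn at 1.14, Ly6a at 1.11 and Kit at 0.50. Of the lysosome, delivery and autophagy genes 4 were called higher and 0 lower (2.56% against 0.222% of all genes), which were Grn (0.64), Laptm5 (0.34), Gabarap (0.36) and Ppt1, the gene of a lysosomal thioesterase (0.80). The log2 difference was above 0 for 85.3% of the lists' genes, with a median of 0.25 against 0.03 over all genes. The HSC list kept 1 call, Ly6a, and its median was 0.18. In the divisions with a G2/M score under the median of their experiment, ranked anew by Ctsd, 0 of 10755 genes passed with edgeR, with 638 at an unadjusted p under 0.05. There the median over 36 tested genes of the G2/M list was -1.35 and that of the lysosome, delivery and autophagy genes 0.22, with 76.3% above 0.

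A fit in which Ctsd and the other genes came from different cells was also made. Divisions were ranked by Ctsd in 1 sister, and the other genes were compared in the other sister. Ranked by the lysosome-high sister and measured in the lysosome-low sister, 69 of 10916 genes passed (0.632%, edgeR), 28 higher and 41 lower. Ranked by the lysosome-low sister and measured in the lysosome-high sister, 9 of 10865 passed (0.0828%), 7 higher and 2 lower. The measured libraries are themselves part of the sums above, so these fits repeat the same divisions with other groups and are no independent check. Hmox1 passed in both, at 1.90 and 1.99, as did Neat1 (1.03 and 1.28) and Ctsl (0.91 and 1.09). Cenpa was at -2.43 and -1.69, with an adjusted p of 0.075 and 0.091 (edgeR). The medians of the lysosome, delivery and autophagy genes were 0.25 and 0.20, and those of the G2/M list -1.79 and -1.56.

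**Figure D5:**
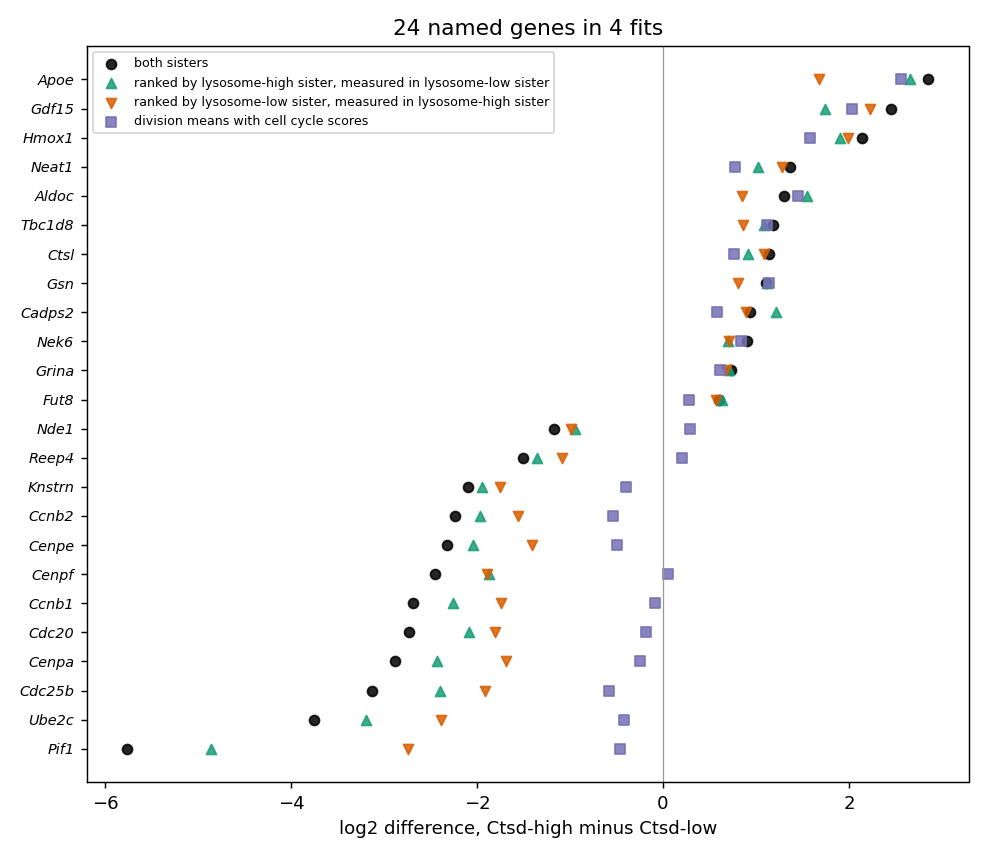
Log2 differences, Ctsd-high minus Ctsd-low, of the 12 named genes that rose and the 12 that fell, in the sums of both sisters, in the fits that rank by 1 sister and measure the other, and on division means with cell cycle scores. The 12 genes that rose lie above 0 in the 4 fits, while the 12 that fell lie between -0.58 and 0.29 once the cell cycle scores are terms. The G2/M score is a mean over mitotic genes, so its use as a term draws genes of that list towards 0 by construction.

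The sequencing runs could be read apart. In run 4 (5 experiments) 76 genes passed (0.619%), 7 higher and 69 lower, and in run 5 (4 experiments) 2 passed (0.0169%), both lower. Of the run 4 calls, all 7 that rose and 68 of 69 that fell had the same sign in run 5, where 51.9% and 48.1% of all tested genes were above and below 0. The difference itself was not shown to depend on the run, with 0 of 11984 genes passing the interaction (edgeR, 614 at an unadjusted p under 0.05). In 40 unpaired cells from 8 experiments, split in the same way by their own Ctsd into 20 and 20, 0 of 9524 genes passed (190 at an unadjusted p under 0.05). Of the tested genes that rose in divisions 74.5% had the same sign there (24 genes at an unadjusted p under 0.05), where 44.5% of all genes lay above 0. Of those that fell 81.4% did (8 genes), where 55.5% of all genes lay below 0.

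Sisters of 1 division were compared as well, and all pairs differed in Ctsd. Between the sister with more and the sister with less Ctsd, 0 of 12846 genes passed (edgeR), with 661 at an unadjusted p under 0.05, and DESeq2 called 4. The smallest p belonged to Hivep2 at 1.13 ± 0.22 on the log2 scale, Trappc6a at 0.47 ± 0.09, Mycn at 0.76 ± 0.16 and Itm2c at 0.40 ± 0.09, higher in the sister with more Ctsd in 8, 9, 9 and 9 of 9 experiments, with an adjusted p of 0.96 each. Rpp38 stood at 0.60 ± 0.14, and Marf1 (-0.25 ± 0.06), Dpysl2 (-0.35 ± 0.08), Dhx9 (-0.21 ± 0.05), Chsy3 (-1.03 ± 0.25) and Itpripl2 (-0.58 ± 0.14) were below 0. The G2/M list had a median of -0.04 and the lysosomal proteases one of 0.09 between sisters, against -2.01 and 0.60 between divisions. Whether the contrasts differ from each other was not tested.

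Ctsd in lysosome-high and lysosome-low sisters is given as a description, since the same Ctsd values chose the groups. In Ctsd-high divisions, Ctsd was at 551.3 ± 133.6 CPM in lysosome-high and 555 ± 128.7 CPM in lysosome-low sisters (SD, n = 9 experiments), and the lysosome-high sister had more Ctsd in 30 of 64 divisions. In Ctsd-low divisions the levels were 199.5 ± 45.01 CPM in lysosome-high and 182.04 ± 47.99 CPM in lysosome-low sisters, and the lysosome-high sister had more in 36 of 64. The mean log2 differences, lysosome-high minus lysosome-low, were 0.01 ± 0.27 in Ctsd-high divisions and 0.27 ± 0.47 in Ctsd-low divisions (SD over 9 experiments). Without the division with the library of 1 Ctsd read, the value in Ctsd-low divisions was 0.09. Across genes, 0 of 11904 passed a test of whether the difference between lysosome-high and lysosome-low sisters depended on the Ctsd group (edgeR interaction term), with 3.05% of genes at an unadjusted p under 0.05.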

How the data were processed

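The deposited tables hold unnormalized read counts per gene and cell. Per the submitters' processing notes, featureCounts of Subread 1.5.0 and SAMtools were used. Aligner, build and use of strand were not given in the sources used here. Reads of overlapping genes cannot be told apart. Gene identifiers matched GENCODE M21 (GRCm38), which gave symbols and positions. The deposited metadata hold other values, cell labels given by the authors (experiment, movie, position, colony, lysosome label). A further 171 count columns belong to no listed sample and were not used.

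The 203 divisions hold 406 of 474 cells. All 474 cells had at least 50000 counts (76735 to 2444858, median 846198) and 1000 detected genes, and ERCC features were left out of totals. Ranks used log2(CPM + 1). Counts of the cells of each group were summed per experiment and tested by the quasi-likelihood test of edgeR 4.0.16 (R 4.3.3) with the experiment as block, after filterByExpr and TMM scaling, Ctsd left out of the results, with Benjamini-Hochberg adjustment at 0.05. It called 225 genes higher and 297 lower, and 156 of 165 genes of the 8 lysosome, delivery and autophagy lists were tested. The block pairs the groups because both come from the same cultures. DESeq2 1.42.0 was an alternative on the same counts. The fits on division means used limma 3.58.1 with a trend on log2(CPM + 1) and took divisions as replicates. They were made with or without the G1/S and G2/M scores and the squares of both scores as terms. The scores were also used, as means and without squares, in the edgeR fit on sums. A score is the mean log2(CPM + 1) of a list's detected genes. Library measures were tested by exact two-sided sign-flip tests over 9 experiments. Scripts were tested on simulated data.

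Members, lists and named genes were chosen with earlier results of these data known. Named genes are the 12 called genes of smallest p per direction with a count in at least 20% of cells, a set of lysosomal and HSC genes, of each list the called ones among its 3 members of smallest p, and 10 genes between sisters. Some genes of these sets are not reported here. Ppt1, Ctso, Cpq, Esam, Cdk6, Adgrl4, Ncl, Atp5b, Cdc45, Aco1 and Tcn2 were added after their values were seen, as were the fit without the division with a library of 1 Ctsd read and the fit on sums with mean scores. The planned test of Ctsd by lysosome label is given as values only, because Ctsd chose the groups.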

Additional observations from a re-analysis of the deposited data

Results flagged for a closer look

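In these results 1 of 9 experiments lay apart from the other 8 by Dixon's criterion (critical value 0.493), which chance alone meets in about 1 of 20 groups. The items come from the many named genes, the library measures and the Ctsd sister differences, so several can meet the criterion by chance alone. All values are differences, Ctsd-high minus Ctsd-low, on the log2(CPM + 1) scale unless stated, and no explanation was tested. Experiment 72, with 3 divisions in each group, had larger falls than the others in 5 genes and a fall in Myc. Cenpf was at -4.48 there and between -2.77 and -1.63 in the others. Knstrn was at -3.66, against -2.25 to -0.91. Cdc20 was at -5.09, against -3.25 to -1.45. Cyc1 was at -1.43, against -0.68 to -0.16. Ncl was at -1.60, against -0.77 to -0.16. Myc was at -1.88, against -0.41 to 0.86.

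Pif1 was at -1.74 in experiment 74 and between -5.11 and -3.45 in the others. Slamf1 was at -4.64 in experiment 73 and between -0.44 and 3.34 in the others. The mitochondrial share was 1.42 percentage points higher in Ctsd-high than in Ctsd-low divisions of experiment 69, with differences from -0.562 to 0.256 in the others. The Ctsd difference between lysosome-high and lysosome-low sisters in Ctsd-low divisions was 1.42 in experiment 68, which holds the library with 1 Ctsd read, and between -0.10 and 0.45 in the others.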

How the results depend on the processing

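Of all tested genes 4.36% (522) were called. The count stayed within 1.5 times that with RLE factors (540), no filter on low counts (585, which is 2.28% of the larger number of genes tested), genes in at least 20% of cells (567), cuts at the median (621) or at quartiles (519), ranks by pooled CPM (504) or within plates (3.79%), cells thinned to 75000 reads (558), no replicate block (3.05%) and without the division with a library of 1 Ctsd read (510). The share was 12.8% with DESeq2 (6.83% higher, 5.93% lower), 13.5% with limma on division means (3.51% higher, 9.94% lower), 8.81% with depth and detected genes as terms and 0.239% with cell cycle scores as terms, where these 3 limma fits take divisions as replicates, and 0% on sums per experiment with mean scores as terms. It was 0.632% and 0.0828% when 1 sister was ranked and the other measured, 0.619% and 0.0169% in run 4 and run 5, 0% in divisions of lower G2/M score and 0% in unpaired cells. Fewer cells entered those last 6 fits, and the cause of the other shifts was not tested. Without 1 experiment each it ranged from 1.38% to 5.42%. Between sisters, 0 genes passed with edgeR and 4 (0.0311%) with DESeq2, and 0 passed without any 1 experiment.

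Among library measures, the ERCC share difference was 0.347 points (exact adjusted p = 0.023) when divisions were cut at the median. With quartiles, the log2 total differed by 0.040 and the mitochondrial share by -0.216 points, and in run 5 that share differed by -0.034 points. G1/S scores differed by -0.63 and -1.28 and G2/M scores by -2.75 and -3.54 in run 4 and run 5, where the smallest exact p is 0.062 and 0.12 before adjustment. Without 1 experiment each, differences ran from -536.1 to -315.1 detected genes, 0.0844 to 0.172 points of ERCC share, -1.08 to -0.73 in G1/S score, -3.42 to -2.74 in G2/M score, -0.11 to -0.0067 in log2 total and -0.0886 to 0.159 points of mitochondrial share, negative only without experiment 69. The Ctsd difference by lysosome label ran from -0.067 to 0.041 in Ctsd-high divisions (-0.040 in run 5), from 0.12 to 0.31 in Ctsd-low ones and from -0.36 to -0.12 between them.

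Log2 differences of named genes that changed sign were as follows. In unpaired cells they were Fut8 -0.22, Tbc1d8 -0.042, Vps26a -0.37, Lyst -0.44, Fgd5 -0.16, Mki67 0.26, Mcm10 0.45, Cdc6 -0.14, Atp5g1 0.15, Slc40a1 -0.11, Anxa5 -0.0096, Nfe2l2 -0.067, Tfeb -0.32, Sort1 -0.41, Tfe3 -0.38, Cd34 -0.20, Myc 0.30, Adgrl4 -0.0068 and Aco1 -0.68. In divisions of lower G2/M score they were Reep4 0.11, Cdkn2c 0.21, Cdc6 -0.33, Soat1 0.080, Tfeb -0.17, Ctsz -0.12, Igf2r -0.019, Tfe3 -0.11, Slamf1 -0.92 and Ifi27 -0.21. With cell cycle scores they were Cenpf 0.056, Reep4 0.20, Nde1 0.29, Cdkn2c 0.39, Soat1 0.071, Plk1 0.52 and Ifi27 -0.33, on sums with mean scores Tpp1 -0.24, Man2b1 -0.099, Psap -0.065, Mki67 0.24, Fth1 -0.057, Nfe2l2 -0.12, Tfeb -0.052, Ctss -1.06, Ctsh -0.56, Igf2r -1.96, Sort1 -0.64, Tfe3 -0.29, Myc 0.18, Ifi27 -0.74, Cdk6 0.12 and Ncl 0.041, on division means Tfe3 -0.12 and Ifi27 -0.43, and with depth terms Tfe3 -0.068 and Ifi27 -0.31. Measured in lysosome-low sisters they were Slamf1 -0.25 and Ifi27 -0.098, and in lysosome-high sisters Ctsz -0.36, Sort1 -0.046, Tfe3 -0.0020 and Ifi27 -0.45. In run 4 they were Myc 0.11 and Ifi27 -0.15, and in run 5 Ctsz -0.0025, M6pr -0.12, Sort1 -0.020 and Slamf1 -0.13. Without the block they were Slamf1 -0.0058 and Myc 0.037, with a cut at the median Slamf1 -0.10 and Ifi27 -0.27, with quartiles Slamf1 -0.47 and Ifi27 -0.00090, ranked within plates Ctsz -0.0065, Slamf1 -0.11 and Ifi27 -0.020, ranked by pooled CPM Ifi27 -0.0041, and without a filter Ifi27 -0.0067. Without 1 experiment each, Ctsz ran from -0.055 to 0.15, Sort1 from -0.035 to 0.16, Slamf1 from -0.35 to 0.45, Ifi27 from -0.10 to 0.12 and Myc from -0.20 to 0.12. Values of genes with few reads per cell are limited by depth.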
